A study of Mus musculus with 2 samples.

Results

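Open chromatin was examined at the genes of fibroblast growth factor (FGF) signalling in whole mouse embryos. The genes were the protein-coding genes of the GENCODE M21 annotation named Fgf plus a number, the receptor genes Fgfr1 to Fgfr4, and the feedback and adaptor genes Spry1, Spry2, Spry4, Spred1, Spred2, Spred3, Dusp6, Etv4, Etv5, Frs2, Frs3 and Il17rd. They made 38 of 21938 protein-coding genes, with 22 ligand genes, 4 receptor genes and 12 feedback and adaptor genes, called feedback genes here. The symbol list held 39 names, and Spry3 was not analysed here because no protein-coding gene of that name was matched.

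The embryos were of the mouse strain B6NCrl at embryonic day 10.5, untreated and with no engineered allele named in the labels, and males and females were pooled. DNase-seq, in which the enzyme DNase I cuts DNA where nucleosomes are displaced and the cut ends are sequenced, was run on 2 biological replicates of this 1 group. The design holds no contrast between conditions, so the comparison made here is between kinds of genes within the same libraries. The labels do not say how many embryos went into each replicate.

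FGF ligands are secreted proteins that bind receptor tyrosine kinases at the cell surface together with heparan sulfate, and the receptors act through the adaptor Frs2 and the Ras-ERK kinase route. ERK activity switches on the ETS factor genes Etv4 and Etv5 and a set of inhibitors, the Sprouty, Spred and Dusp6 proteins, which restrain the same route. In the embryo of this stage, FGF signals from the apical ridge drive limb outgrowth, those of the midbrain and hindbrain border pattern the brain, and those of the tail bud keep the axis growing. The proteins of Fgf11, Fgf12, Fgf13 and Fgf14 stay inside the cell and regulate sodium channels, and those of Fgf15, Fgf21 and Fgf23 act as hormones.

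Replicate 1 held 207946 peaks and replicate 2 held 229568 peaks on the nuclear chromosomes, each 150 bp wide. Each peak carried the authors' score, for which the term peak strength is used, and its medians were 41 and 50. What the score measures is not given in the sources used here, and read depth is likewise unknown. Lists of marker genes served to check the tissue label. Both replicates had promoter peaks at all 4 neural tube, all 3 somite, all 3 heart and all 3 limb bud markers, and at 2 of 3 endothelial markers. Of 4 primitive red cell markers none did, and Klf1 had a peak in replicate 1 alone. Neither the 3 trophoblast nor the 2 decidua markers had promoter peaks. Of 3 yolk sac endoderm markers only Afp did. Promoter peaks in both replicates were present at 69.7% of all protein-coding genes, so a count of markers is a weak check. The markers with such peaks had median strengths of 115.25 (neural tube), 108 (somite), 73.5 (endothelium), 65 (heart) and 62.5 (limb bud). The median of all genes with such peaks was 113.5.

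A gene's promoter was called open when each replicate had a peak no more than 1 kb from an annotated transcription start site (TSS) of the gene, whichever TSS that was. Of the 22 ligand genes, 18 were open (81.8%), against 69.7% of all protein-coding genes. With replicate 1 alone 18 had a promoter peak (70.8% of all genes) and with replicate 2 alone 20 did (71.9%). The 4 receptor genes and the 12 feedback genes were all open. The open promoters differed in strength, taken as the strongest score within 1 kb of a TSS and averaged over the replicates. The median strength of the open ligand genes was 79.25, with a range of 39 to 119.5. That of the receptor genes was 111.5 (80 to 120) and that of the feedback genes 128 (115 to 138). All 15300 open protein-coding genes had a median of 113.5. Among the open genes, the median percentile was 18.3 for ligand genes, 47.2 for receptor genes and 78.9 for feedback genes. The ordering of the medians was the same in each replicate, at 73, 109 and 123.5 in replicate 1 and 88, 114 and 129 in replicate 2. The strongest score is taken over a median of 14 TSSs per receptor gene and 2 per ligand gene. With the 5'-most TSS alone, Fgfr1 had 53, Fgfr2 95.5, Fgfr3 108 and Fgfr4 80, beside a ligand median of 75.75. In a whole embryo, a promoter open in few cells and a promoter open weakly in many cells cannot be told apart. These counts and medians are descriptions, and no test was made over the genes.

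A strength over 110 in both-replicate mean was reached by 38.4% of all protein-coding genes and by 55.0% of the open ones. It was reached by 12 of 12 feedback genes, by 2 of 4 receptor genes and by 2 of 22 ligand genes, Fgf12 and Fgf15. With the 1 kb window the feedback and ligand genes overlapped only there. The lowest feedback gene, Spry1, stood at 115, the same value as Fgf15. The strongest Spred1 peak lay 569 bp from a TSS. Within 500 bp Spred1 had 97 in place of 115.5, below 110 and below ligand genes such as Fgf9 (103).

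**Figure D1:**
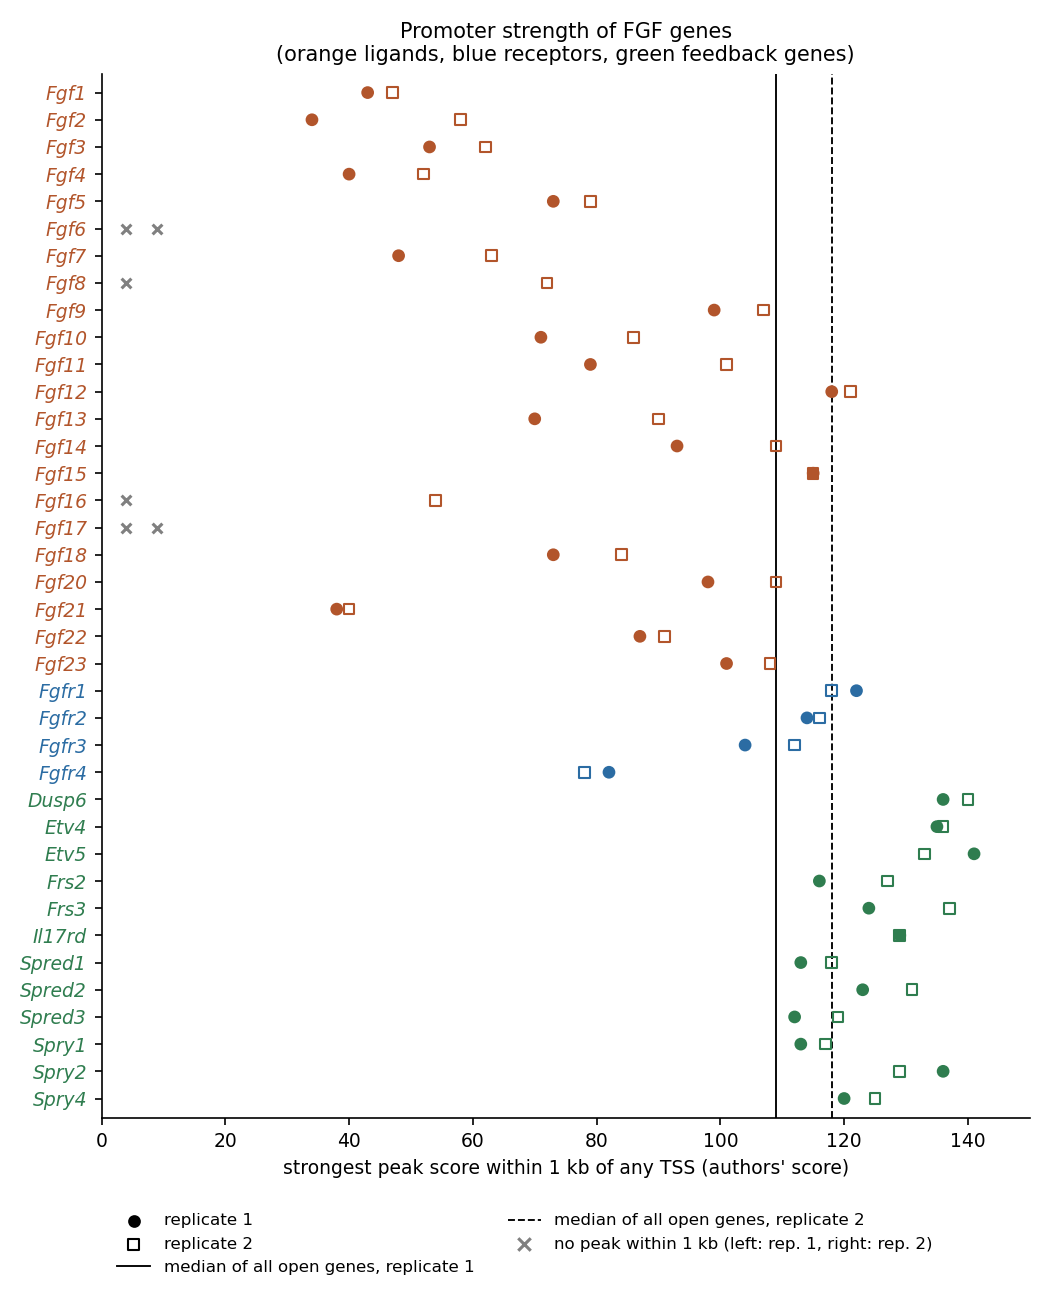
The strongest peak score within 1 kb of any TSS is plotted for each of the 38 genes, with filled circles for replicate 1, open squares for replicate 2, crosses where a replicate had no peak and vertical lines at the medians of all open genes (109 and 118). The feedback genes lie at or above 112 in each replicate, while most ligand genes lie below both lines.

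The feedback genes had the strongest promoters of the set. Dusp6, the phosphatase that inactivates ERK, scored 136 in replicate 1 and 140 in replicate 2 (chromosome 10, 99263096 to 99263245, at its TSS). Etv5 scored 141 and 133 and Etv4 scored 135 and 136. These are the ETS transcription factors of the FGF response, and both replicates placed them within a few points of each other. Among the Sprouty genes, inhibitors of the receptor route, Spry2 scored 136 and 129, Spry4 scored 120 and 125, and Spry1 scored 113 and 117. Among the Spred genes, membrane-bound inhibitors of Ras activation, Spred2 scored 123 and 131, Spred1 scored 113 and 118, and Spred3 scored 112 and 119. Il17rd, a membrane inhibitor of FGF signalling also called Sef, scored 129 in both replicates. The adaptor genes Frs2 (116 and 127) and Frs3 (124 and 137) stood in the same range. The promoter peak of Frs3 also lay within 1 kb of a TSS of Tomm6, and that of Spred3 within 1 kb of a TSS of Ggn, so these scores cannot be given to 1 gene.

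The promoter peak of Etv5 is shown as the strongest feedback promoter outside untranslated exons by replicate 1 coordinates, with the E-box match CAGCTG in capitals. It lies at chr16:22439736-22439885 (GRCm38.p6, the assembly of mm10), 17 bp from the TSS, and the plus strand is given although the gene is on the minus strand. The replicate 2 peak of Etv5 touches an untranslated exon.
Etv5 promoter peak: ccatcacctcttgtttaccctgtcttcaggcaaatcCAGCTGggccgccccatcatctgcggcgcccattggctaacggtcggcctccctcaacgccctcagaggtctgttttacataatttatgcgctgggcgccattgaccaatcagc

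The receptor genes did not share 1 level. Fgfr1 scored 122 and 118 and Fgfr2 scored 114 and 116, both above the median of open genes in the mean. Fgfr3, the receptor known for its restraint of bone growth, scored 104 and 112. By the strongest TSS, Fgfr4 was the weakest, at 82 and 78, and lay below every other receptor and feedback gene in each replicate. At the strongest TSS the replicates differed by at most 8 points within a receptor gene, less than the gap between Fgfr4 and the others. Replicates differed more at some other TSSs, as at the 5'-most TSS of Fgfr1 (75 and 31). Which TSS was open mattered for Fgfr1 and Fgfr2. Fgfr1 has 18 annotated TSSs, of which 8 had a peak in both replicates. Its scores of 122 and 118 belong to 6 TSSs between positions 25518759 and 25519344 on chromosome 8, while its 5'-most TSS scored 75 and 31. With the 5'-most TSS alone, Fgfr1 had a mean of 53 and lay below Fgfr4. Fgfr2 has 14 TSSs, and the scores of 114 and 116 belong to a cluster of 4 at 130266191 to 130266263 on chromosome 7. Its 5'-most annotated TSS, at 133123350 and 2.86 Mb from the next, scored 93 and 98.

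The ligand genes spread from no peak to the level of the feedback genes. Among the genes of the intracellular subfamily, all 4 were open. Fgf12 scored 118 and 121 and had the strongest ligand promoter. Fgf14 scored 93 and 109, Fgf11 scored 79 and 101, and Fgf13 scored 70 and 90. The Fgf11 peak lay 871 bp from the TSS, and within 500 bp the mean was 38 in place of 90. The Fgf13 peak lay 760 bp from an internal TSS, and within 500 bp the mean was 58 in place of 80. Without these 4 genes, which do not encode secreted signals, 14 of 18 ligand genes were open with a median strength of 77.25. The hormone genes ranged widely. Fgf15, the mouse counterpart of human FGF19, scored 115 in both replicates. Fgf23, the regulator of phosphate, scored 101 and 108, and Fgf21, a metabolic hormone of the liver, scored 38 and 40. The Fgf21 peak lay 986 bp from its TSS and also near a TSS of Fut1.

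The promoter peak of Fgf12 is shown as the strongest ligand promoter, at chr16:28753276-28753425 (GRCm38.p6, plus strand, gene on the minus strand) and 208 bp from the TSS. The capitals mark 2 overlapping matches of the SP motif CCCGCCC, which start at positions 30 and 34 of the peak.
Fgf12 promoter peak: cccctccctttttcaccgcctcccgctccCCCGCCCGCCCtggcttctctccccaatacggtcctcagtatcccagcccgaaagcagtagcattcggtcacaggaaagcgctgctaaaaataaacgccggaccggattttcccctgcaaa

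Of the Fgf9 subfamily, Fgf9, a signal of lung and gonad, scored 99 and 107, and Fgf20 scored 98 and 109. The Fgf20 peak was shared with a TSS of Micu3. Fgf16, the remaining gene of this subfamily, had no peak in replicate 1 and 54 in replicate 2. In the Fgf7 subfamily, Fgf10, the ligand of limb bud and lung mesenchyme, scored 71 and 86, Fgf22 scored 87 and 91, Fgf7 scored 48 and 63, and Fgf3, a signal of the inner ear, scored 53 and 62. The scores of Fgf10 belong to an internal TSS at 118714699 on chromosome 13, and its 2 first TSSs scored 39 and 47. In the Fgf4 subfamily, Fgf5, a regulator of the hair cycle, scored 73 and 79, and Fgf4, a signal of the apical ridge, scored 40 and 52. The Fgf4 peak lay 942 bp from a TSS, and Fgf4 was not open with a window of 500 bp. Fgf1 scored 43 and 47, with the replicates' best peaks at different TSSs, and Fgf2 scored 34 and 58. A peak of 93 in both replicates stood 1.04 kb upstream of Fgf1, so that its mean was 93 in place of 45 with a window of 2500 bp. The difference of 24 points at Fgf2 was the widest between replicates among the open ligand genes.

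The genes of the Fgf8 subfamily had the fewest open promoters. Fgf18, a signal of bone and lung, was open with 73 and 84. Fgf8 had no peak within 1 kb of its 5 TSSs in replicate 1 and a strongest peak of 72 in replicate 2. Its nearest peak in replicate 1 lay 1619 bp away and scored 30. Fgf17, which acts with Fgf8 in the midbrain and hindbrain, had no promoter peak in either replicate. Its nearest peak lay 3368 bp upstream in both, with scores of 81 and 102. Outside this subfamily, Fgf6, a gene of skeletal muscle, also had none in either replicate, as did 27% of all protein-coding genes, and its nearest peaks of 49 and 47 lay 3770 and 3710 bp away. A missing peak does not show that a promoter was closed in the cells that use the gene.

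Most open ligand genes had some peak close to a start site, but seldom their strongest. A peak of any score lay within 100 bp of a TSS in 15 of 18 open ligand genes in replicate 1 and 17 in replicate 2. Of all 15300 open protein-coding genes, 13906 had such a peak in replicate 1 and 13902 in replicate 2. Either count is 63.4% of all protein-coding genes, open or not. Of the 16 receptor and feedback genes 13 had such a peak in each replicate. The strongest peak shared by the replicates lay within 100 bp of a TSS in 3 of 18 open ligand genes, Fgf2, Fgf22 and Fgf23. It did so in 4 of 4 receptor genes and 8 of 12 feedback genes. Of all protein-coding genes 53.7% had such a peak, which is 77.3% of the 15228 genes with a shared promoter peak. The median distance of the strongest shared peak was 397.5 bp for ligand genes, 16 bp for feedback genes and 0 bp for receptor genes and for all genes. Ligand genes have a median of 2 annotated TSSs, against 14 for receptor genes, 3.5 for feedback genes and 3 for all genes, and a gene with more TSSs has more chances of a near peak. At the 1 kb limit, the peaks of Fgf7 (993 bp, 48 and 63) and Fgf21 (986 bp) were just inside, and a peak of Fgf11 (1019 bp, 83 and 107) was just outside.

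CpG content differed between the classes in the same direction as strength. The observed to expected CpG ratio, taken over 500 bp to each side of the gene's first TSS, had a median of 0.49 in ligand genes, 0.69 in receptor genes, 0.83 in feedback genes and 0.55 in all genes. Across the 15300 open genes Spearman's rho between this ratio and strength was 0.41, and across the 34 open FGF genes it was 0.54. Both are across genes that share the same libraries, so they carry no p-value. The ratio is that of the first TSS and the strength that of the strongest, so they can belong to different promoters. At Fgfr1 the ratio of 0.28 belongs to a TSS that scored 75 and 31. At Fgfr2 the ratio of 0.73 belongs to its far TSS (93 and 98). Fgf9, Fgf10 and Fgf13 also scored higher at a later TSS. Among genes with a ratio of at least 0.7, 98.6% of 7528 protein-coding genes were open with a median strength of 121. The 10 receptor and feedback genes of this class were all open, with a median of 125.75. Of the 5 ligand genes in this class 3 were open, Fgf5, Fgf18 and Fgf20, with a median of 78.5, and Fgf8 and Fgf16 were the others. Between 0.4 and 0.7 the ligand genes had 9 of 10 open with a median of 90, against 110 for all open genes of that class and 115.5 for 5 receptor and feedback genes. Below 0.4 they had 6 of 7 open with a median of 50.75, against 31.3% and 82.5 for all genes. In each of the 3 classes the open ligand genes thus had a lower median strength than all open genes, and the part of CpG content in the difference was not tested further.

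**Figure D2:**
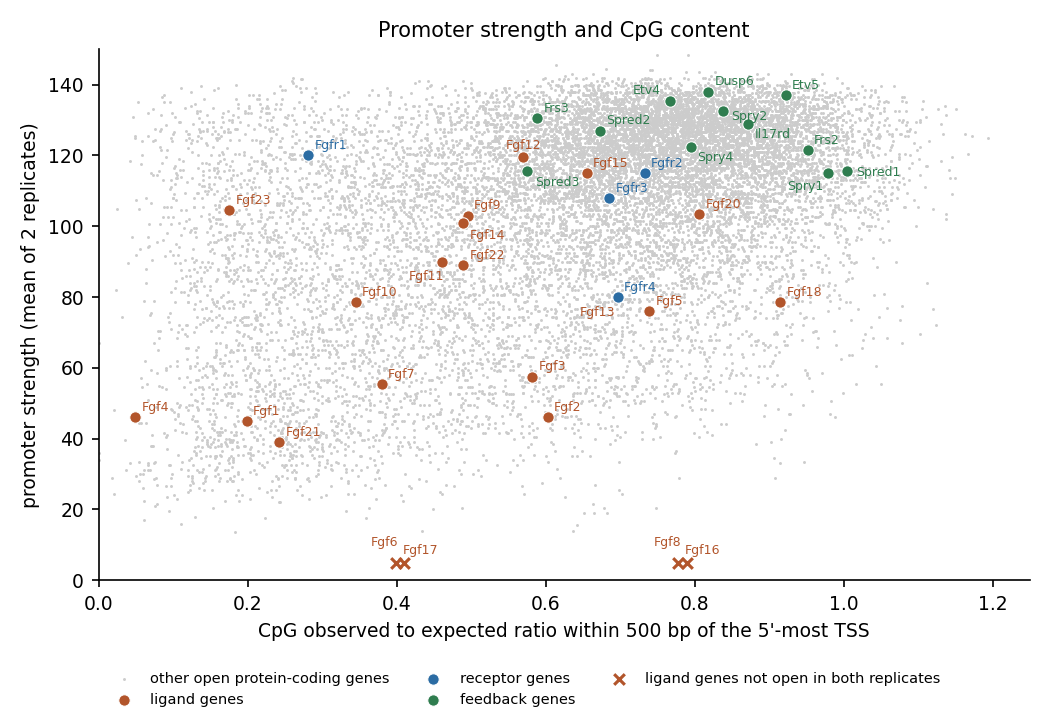
Promoter strength (mean of 2 replicates) is plotted against the CpG observed to expected ratio for all open protein-coding genes (grey) and for ligand (orange), receptor (blue) and feedback genes (green), with crosses at the bottom for the 4 ligand genes not open in both replicates. Feedback genes crowd at the upper right, ligand genes reach down to 39, and the point of Fgf13 lies under that of Fgfr4.

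The same 9 motifs were searched in promoter sequences. RefSeq promoters (GRCm38.p6, 300 bp around a start) matched 29 of the 38 genes, 16 of them ligand genes. SP matches (CCCGCCC, both strands) were present in 15 of 29 (51.7%), against 38.2% of 16522 promoters. ETS matches (CCGGAAG) were present in 1, that of Frs2, against 13.4%. The E-box CAGCTG was present in 7 (24.1%) against 17.7%, and PBX-MEIS matches (TGACAG) in 4 (13.8%) against 20.9%. The motif AGATAA of the GATA factors was also present in 4, against 11%. SOX matches (ACAATG) were present in 2 (6.90%) against 12.2%, and TCF/LEF matches in 1, that of Fgf6, against 3.67%. The homeodomain core TAATTA, with 5.31% of all promoters, and the core of the CTCF motif, with 0.218%, were in none of the 29. A match is a run of letters and not evidence of binding.

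Hotspots, the broader regions of enriched cutting called by the authors, were wider at these promoters in replicate 2. The widest hotspot within 1 kb of a TSS had a median of 841 bp in replicate 1 and 1487 bp in replicate 2 over all open genes. Ligand genes had medians of 751 and 1901 bp, and receptor and feedback genes 1223.5 and 2191.5 bp. A width of 2 kb or more was seen at 1 of 22 ligand genes and 5 of 16 receptor and feedback genes in replicate 1, against 2.92% of all genes. In replicate 2 it was seen at 8 and 9, against 18.1%. The hotspot of Fgf9 measured 733 bp in replicate 1 and 5088 bp in replicate 2, that of Fgf5 876 and 4087 bp, and that of Fgf15 1132 and 3383 bp. Dusp6 (3089 and 4956 bp) and Fgfr2 (3465 and 5630 bp) were wide in both. Fgf18 (1536 and 1451 bp) and Fgfr4 (643 and 511 bp) went the other way. So did Fgf21, with 176 bp in replicate 1 and no promoter hotspot in replicate 2. Widths are from separate calls on each library, so a difference between them is a difference between these 2 libraries. By hotspots in place of peaks, 17 of 22 ligand genes and all 16 others were open in both replicates, against 70% of all genes.

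**Figure D3:**
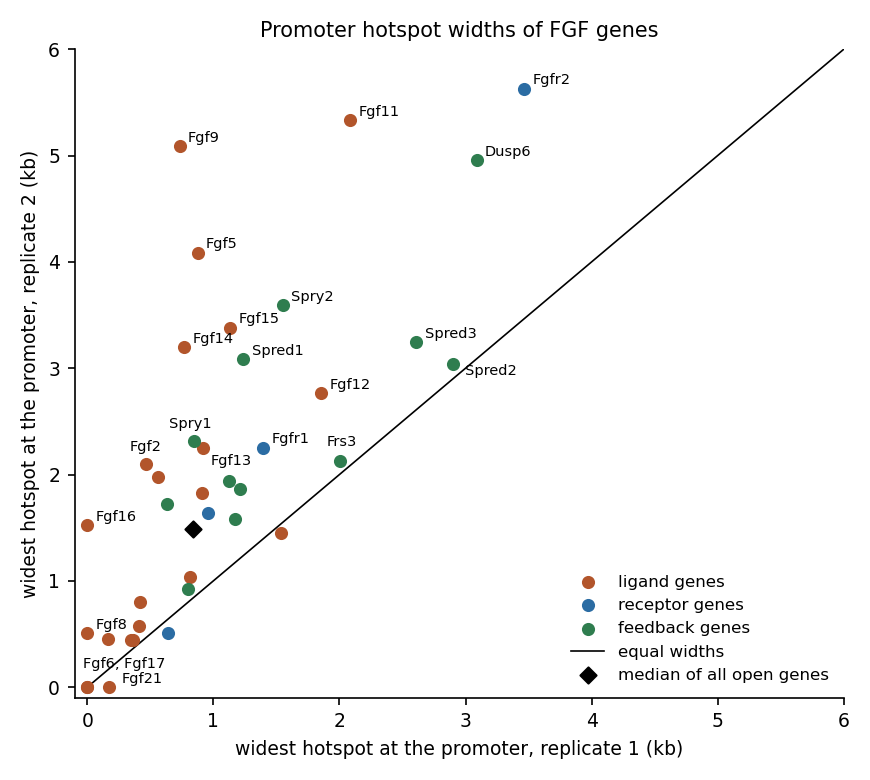
The width in kb of the widest hotspot at each promoter is plotted for replicate 1 (x axis) against replicate 2 (y axis), with 0 where there was none, a diamond at the medians of all open genes and a line of equal widths. Nearly all genes lie above the line, with Fgf9, Fgf5 and Fgf14 farthest to the left among those wider than 3 kb in replicate 2.

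Distal open sites were counted as peaks shared by the replicates, over 1 kb from any TSS of a protein-coding gene and within 50 kb of any TSS of the FGF gene. Ligand genes had a median of 8 (2 to 16), receptor genes 15 (10 to 33) and feedback genes 12.5 (4 to 21), against 5 for all protein-coding genes. At least 10 were present at 7 of 22 ligand genes and at 11 of 16 receptor and feedback genes, against 23.2% of all genes. In single replicates the medians of ligand genes were 10.5 and 13.5, and those of receptor and feedback genes 17 and 18, against 7 and 8. The difference depended on the TSSs and the reach counted. With the 5'-most TSS alone the medians were 7 and 10.5, and within 25 kb they were 4.5 and 5.5.

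**Figure D4:**
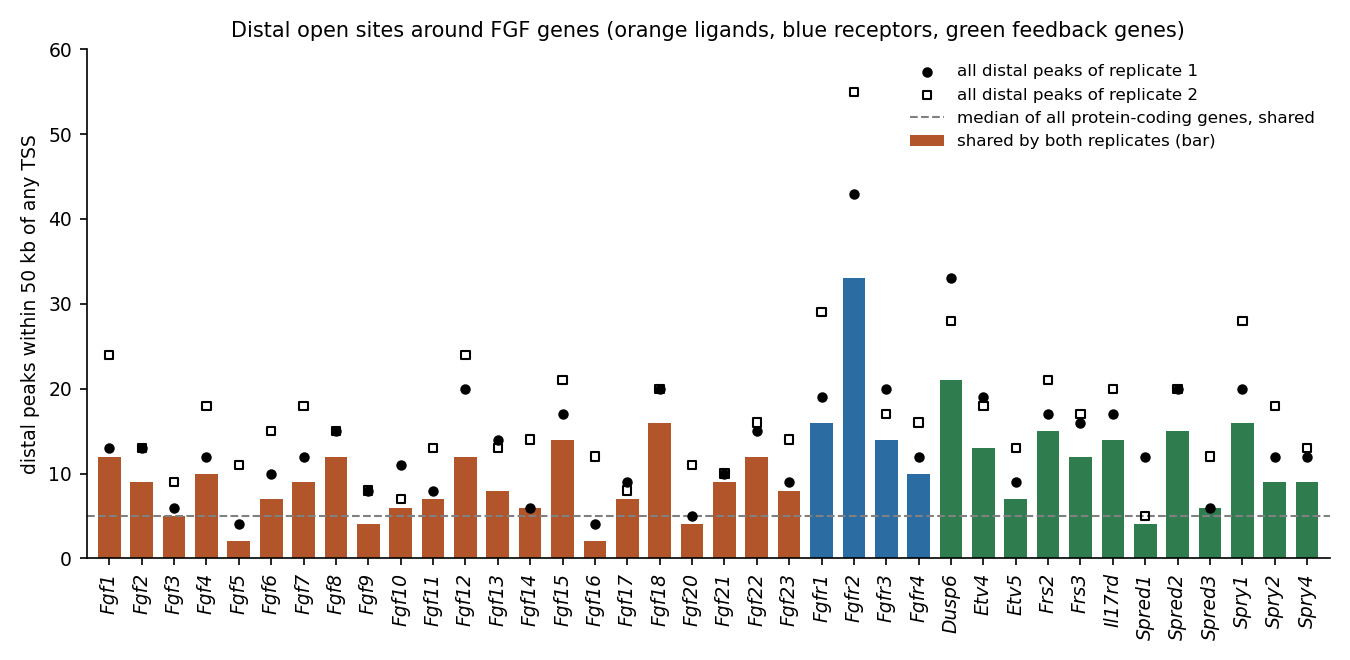
Bars give the number of distal peaks shared by both replicates within 50 kb of each gene's TSSs, circles and squares the numbers in replicate 1 and replicate 2, and the dashed line the median of all protein-coding genes (5). Fgfr2 has the highest bar at 33, followed by Dusp6 at 21, while Fgf5 and Fgf16 have 2.

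Fgfr2 had 33 shared distal peaks, 43 in replicate 1 and 55 in replicate 2. Without its far 5'-most TSS the count was 21, and with that TSS alone it was 12. Those 12 had Ctbp2 as the gene of the nearest TSS, and the 21 had Fgfr2. Fgfr1 had 16, Fgfr3 had 14 and Fgfr4 had 10. The strongest distal peak of Fgfr1 (123 and 130) lay in its own intron (chromosome 8, 25544996 to 25545145). That of Fgfr3 (117 and 113) lay 16.2 kb upstream between genes. That of Fgfr4 (134 and 137) was the strongest of any member and lay nearer to a TSS of Nsd1. The strongest distal peak of Fgfr2 (97 and 101) is shown for the receptor with the most distal sites, and lies in its intron 12.6 kb from the nearest TSS, at chr7:130216016-130216165 (GRCm38.p6, plus strand). It held none of the 9 motifs searched.
Fgfr2 intronic peak: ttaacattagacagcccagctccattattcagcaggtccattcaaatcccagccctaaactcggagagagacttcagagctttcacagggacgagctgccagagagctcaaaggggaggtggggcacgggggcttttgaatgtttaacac

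Among the feedback genes Dusp6 led with 21 shared distal peaks, of which 20 had Dusp6 as the gene of the nearest TSS and none lay in its short gene body. The lead depended on the TSSs left out. The count was 11 over 1 kb from any TSS of any gene, noncoding ones included, and 8 over 2500 bp, where Spry1 had 14 and Etv4 and Spred2 had 13. Spry1 had 16, Frs2 and Spred2 had 15, Il17rd had 14, Etv4 had 13 and Frs3 had 12. Spry2 and Spry4 had 9 each, Etv5 had 7, Spred3 had 6 and Spred1 had 4. All 15 of Spred2 and all 9 of Spry2 were nearest to that gene, but none of the 12 of Frs3 were. Strong distal peaks stood upstream of Spred2 (121 and 124), in an intron of Etv5 (115 and 125) and downstream of Spry1 (112 and 123). The strongest of Dusp6 (102 and 120) lay 20.3 kb downstream between genes, and is shown for the feedback gene with the most distal sites by the first count, at chr10:99285916-99286065 (GRCm38.p6, plus strand). It held none of the motifs.
Dusp6 downstream peak: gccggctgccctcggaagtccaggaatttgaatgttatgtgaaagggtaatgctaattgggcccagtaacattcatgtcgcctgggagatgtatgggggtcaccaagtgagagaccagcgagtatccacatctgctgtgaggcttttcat

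Among the ligand genes Fgf18 had 16 shared distal peaks and Fgf15 had 14. Fgf1, Fgf8, Fgf12 and Fgf22 had 12 each and Fgf4 had 10. Fgf2, Fgf7 and Fgf21 had 9, Fgf13 and Fgf23 had 8, and Fgf6, Fgf11 and Fgf17 had 7. Fgf10 and Fgf14 had 6, Fgf3 had 5, Fgf9 and Fgf20 had 4, and Fgf5 and Fgf16 had 2. Several of these sites stand nearer to other genes. Of the 12 at Fgf22 and the 9 at Fgf21 none had that gene as the nearest, and of the 14 at Fgf15 only 4 did. Fgf3, Fgf4 and Fgf15 are neighbours on chromosome 7 and counted 10 peaks more than once, and Fgf6 and Fgf23 on chromosome 6 shared 3. Over 2500 bp from any TSS of any gene, Fgf15 had 6 and Fgf22 had 4. When each peak was given to the nearest TSS only, the ligand median was 3.5 and that of receptor and feedback genes 10.5.

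The strongest distal peaks of the ligands with the most sites are shown. That of Fgf18 (121 and 134) lay 1.08 kb upstream of its TSS, just outside the promoter window, at chr11:33148476-33148625, and outscored the peak inside the window. Its E-box match CAGCTG is in capitals. That of Fgf15 (132 and 123) lay 45.0 kb downstream at chr7:144941556-144941705, 1.63 kb from a TSS of Ccnd1, and held no match. Both are given on the plus strand of GRCm38.p6.
Fgf18 upstream peak: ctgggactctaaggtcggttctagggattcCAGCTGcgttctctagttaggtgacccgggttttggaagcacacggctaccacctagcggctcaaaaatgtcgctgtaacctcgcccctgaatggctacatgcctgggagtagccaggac
Fgf15 downstream peak: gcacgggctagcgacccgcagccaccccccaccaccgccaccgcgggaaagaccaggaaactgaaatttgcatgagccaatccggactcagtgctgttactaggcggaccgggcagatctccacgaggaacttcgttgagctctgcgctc

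The 38 genes together had 381 distinct distal peaks, of which 180 (47.2%) lay in introns, 17 in exons and 184 between genes. The peaks of ligand genes had a median strength of 56.5 and those of receptor and feedback genes 59.5, against 50.5 for all 117129 shared distal peaks. A strength of 100 or more was carried by 11 of 167 (6.59%) ligand peaks, by 17 of 214 (7.94%) receptor and feedback peaks and by 3.98% of all. The distal peaks counted for ligand genes were thus close in strength to those of the other FGF genes, unlike their promoter peaks. Of the ligand peaks of 100 or more, those at Fgf8, Fgf11, Fgf15, Fgf21 and Fgf22 were nearest to a TSS of another gene. Those at Fgf14, Fgf18 and Fgf23 were nearest to their own gene. So were the receptor and feedback peaks of that strength, except the strongest of Fgfr4.

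Motif matches in the 381 distal peaks pooled, on both strands, lay within a few percentage points of the shares of all shared distal peaks. The E-box CAGCTG was present in 17.3% against 17.2%. The motif AGATAA of the GATA factors was present in 6.04% against 6.36%. The motif CTTTGAT of the TCF and LEF factors was present in 2.62% against 3.19%. PBX-MEIS (TGACAG) was present in 12.1% against 15.1%, SOX (ACAATG) in 7.61% against 9.69% and the core of the CTCF motif in 1.31% against 2.03%. ETS (CCGGAAG) was present in 2.10% against 1.26% and SP (CCCGCCC) in 4.72% against 3.47%. The homeodomain core TAATTA was present in 3.15% against 4.23%. By class, it was in 1 of 167 ligand peaks and in 11 of 214 receptor and feedback peaks. The E-box was in 15.6% and 18.7% of these, and SOX matches in 7.78% and 7.48%. Differences between the classes were not tested.

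The Fgf8 locus (chromosome 19, 45736798 to 45742915, minus strand) was described with its neighbour Fbxw4, whose introns are known to hold enhancers of Fgf8. Fgf8 had 12 shared distal peaks within 50 kb with a median strength of 71, 4 upstream and 8 inside or downstream of the gene. The strongest (91 and 115) lay 4.68 kb upstream, nearer to a TSS of Npm3. An intronic peak of Fgf8 scored 79 and 104, and a peak in its exon scored 63 and 83. The introns of Fbxw4, which starts 76.5 kb beyond the Fgf8 gene, held another 12 shared distal peaks, 13 in replicate 1 and 16 in replicate 2. Their median strength was 47.25 (36 to 74), near the 50.5 of all distal peaks. The set within 50 kb and the set in Fbxw4 shared no peak, so they held 24 in all. Another 5 lay between the genes in neither set, which makes 29 from Fbxw4 to 50 kb upstream of Fgf8. Over 78.9 kb of intron, Fbxw4 had 0.152 shared distal peaks per kb. The 3168 protein-coding genes with 50 to 150 kb of intron had a median of 4 peaks and 0.049 per kb, and the density in Fbxw4 stood at percentile 95.8 among them. The stretch between the genes held 10 shared distal peaks, among them a peak of 80 and 103 that lay 66.8 kb downstream of the Fgf8 start and outside both sets.

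The strongest distal peak of Fgf8 that touches no untranslated exon (89 and 107) is shown, 25.2 kb downstream of the 5'-most TSS at chr19:45717616-45717765 (GRCm38.p6, plus strand). The capitals mark the match of the SOX motif ACAATG, read as CATTGT on this strand, at position 141 of the peak. SOX matches were present in 5 of the 24 peaks of the set within 50 kb and the set in Fbxw4, and in 9.69% of all shared distal peaks. PBX-MEIS matches were in 3 of the 24, and ETS, TCF/LEF and E-box matches in 2 each. Homeodomain, CTCF core and SP matches were in 1 each, and GATA matches in 0. The shares of all shared distal peaks are given above.
Fgf8 downstream peak: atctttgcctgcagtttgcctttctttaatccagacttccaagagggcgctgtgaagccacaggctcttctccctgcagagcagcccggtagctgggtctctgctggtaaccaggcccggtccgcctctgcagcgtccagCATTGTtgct

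Over the Fgf8 gene itself the replicates differed. From its 3' end to 1 kb upstream of its first TSS, replicate 1 had 3 peaks in 3 hotspots and replicate 2 had 11 peaks in 9 hotspots. The peaks only in replicate 2 scored 52 to 72, and 6 of them lay in the promoter window. At other genes too, hotspots at promoters were wider in replicate 2, as given above, and the part of this in the call at Fgf8 was not tested.

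**Figure D5:**
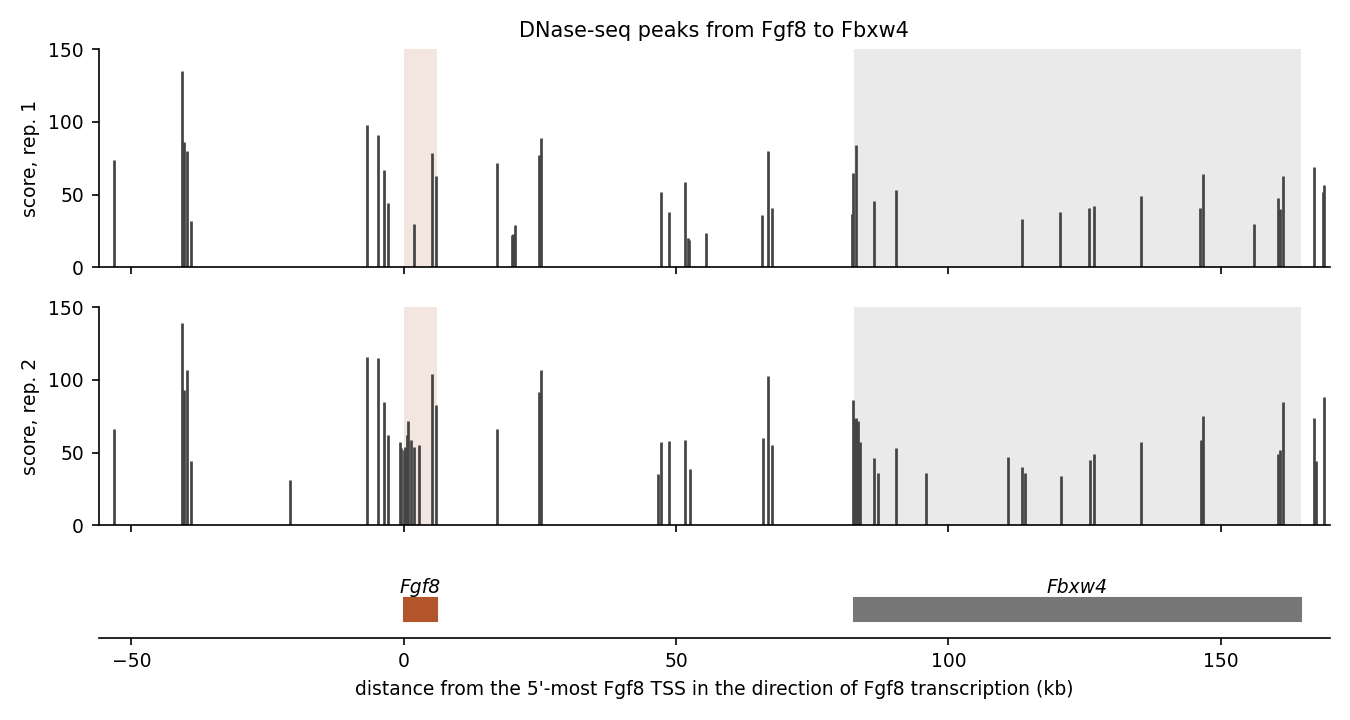
Vertical lines give the peak scores of replicate 1 (top) and replicate 2 (middle) by distance in kb from the 5'-most Fgf8 TSS, counted in the direction of Fgf8 transcription, with the extents of Fgf8 (orange) and Fbxw4 (grey) below. Replicate 2 has a block of peaks over the start of Fgf8 that replicate 1 lacks, while 12 peaks in Fbxw4 introns recur in both.

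Other genes of the pathway were open nearly throughout. Of 43 genes in 4 lists 41 were open (95.3%, against 69.7% of all genes), with a median strength of 124 and a median of 10 distal shared peaks. All 21 genes of the Ras-ERK route were open, led by the adaptor Shc1 (141 and 142). All 8 heparan sulfate enzymes were open, led by Hs2st1 (142 and 144), a sulfotransferase, and Glce (130 and 136), an epimerase. All 6 ERK-responsive genes were open, led by Ier2 (139 and 137) and Etv1 (112 and 129). Of 8 co-receptors and ligand regulators 6 were open, led by the membrane proteins Flrt3 (128 and 135) and Flrt2 (122 and 134). Fgfbp1, a carrier of secreted FGFs, had no promoter peak, and Flrt1 had a peak of 48 in replicate 1 alone. The Klotho genes Kl (44 and 68) and Klb (52 and 66), co-receptors of the hormone FGFs, lay in the range of the ligand genes.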

How the data were processed

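DNase-seq was run on 2 biological replicates of pooled embryos, and the authors deposited peaks and hotspots for each replicate on mm10, per the labels. Not given in the sources used here are the aligner, the caller and its thresholds. Each deposited peak carries a score of 2 to 149 on nuclear chromosomes, which was used to rank peaks. Each deposited hotspot carries a −log10 q-value, from 1.30 to 100, which filtered nothing. Repeated peaks (28 and 47) were dropped. Genes and TSSs were those of GENCODE M21, and sequences came from GRCm38.p6. Peaks of the replicates were paired one to one by best overlap of at least 1 bp, and coordinates given are those of replicate 1. Promoters were taken within 1 kb of any TSS, and distal peaks within 50 kb. No p-value was computed, since the group has no contrast and genes are not replicates.

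Every member is named with its strengths and distal count. Of the other pathway lists, the 2 strongest open genes and those not open are named, and Kl and Klb were named after their values were seen. An item that this rule takes is not reported here. Sequences shown are the strongest distal peaks of Fgf8 and of the 2 ligand genes and 2 other genes with the most sites, and promoter peaks. Peaks touching untranslated exons by their replicate 1 coordinates were left out. The members, lists, motifs and tests were chosen with earlier results of these data known, and so was the count of peaks within 100 bp of a TSS. Python 3.11.15 with pandas 2.3.3, numpy 2.4.6, scipy 1.17.1 and pysam 0.24.0 was used, and pairing, promoter and distal counts were tested on simulated data.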

Additional observations from a re-analysis of the deposited data

How the results depend on the processing

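The receptor and feedback genes were all open under 7 alternatives to the promoter rule (windows of 500 and 2500 bp, the 5'-most TSS, the stronger 50% of peaks, either replicate alone, hotspots). The number of open ligand genes was 16, 19, 18 and 14 under the first 4, 18 to 20 with 1 replicate left out, and 17 by hotspots. Their median strength ranged from 73 to 85 with 1 replicate left out. That of receptor and feedback genes ranged from 121 to 126, and the difference of 42.75 from 41 to 48. The difference was 33 with a window of 2500 bp and 32.5 with the stronger 50% of peaks. With the 5'-most TSS it was 46.25, although Fgfr1, Fgfr2, Fgfr3 and Fgfr4 then all lay below 110.

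Distal medians moved more, and the cause was not tested beyond how each alternative is built. Within 25 kb ligand genes had 4.5 and the others 5.5, a difference of 1 against 5.5, and within 100 kb 17 and 21, a difference of 4. The difference was 3.5 with the 5'-most TSS and with the stronger 50% of peaks (5 and 8.5). It was 7 with the nearest TSS only, where ligand genes had 3.5. Ligand genes had 5 over 2500 bp from any TSS. With 1 replicate left out, ligand medians were 10.5 to 13.5, those of the others 17 to 18, the difference 4.5 to 6.5, and the peaks in Fbxw4 introns 13 to 16. The Fbxw4 count was 5 with the stronger 50% of peaks. Over single genes and alternatives, 18 promoter strengths moved by more than the spread between replicates and 180 did not. Promoters open by the main rule but lost under an alternative have no strength and are in neither count. They were Fgf4 and Fgf21 within 500 bp, and Fgf1, Fgf2, Fgf4 and Fgf21 with the stronger 50% of peaks. The 18 moved with another window or with the 5'-most TSS. Leaving 1 replicate out cannot shift a mean of 2 scores beyond that spread, which is their SD. With the stronger 50% of peaks, a strongest peak is either unchanged or lost. These alternatives thus add to the 180 by construction and say nothing on stability. Of the distal counts, 137 moved beyond 1.5 times and 282 did not. The medians of ligand genes stayed below those of the others under each alternative run. Some orders changed, as in these examples. With the stronger 50% of peaks the open share of ligand genes (14 of 22) fell below that of all genes (65.8%). With the 5'-most TSS, Fgfr1 (53) fell below Fgfr4 (80), and Fgfr2 (95.5) below Fgfr3 (108). With a window of 500 bp, Spred1 (97 in place of 115.5) fell below Fgf9 (103), Fgf20 (103.5) and Fgf23 (104.5). With a window of 2500 bp Fgf18 had a strength of 127.5 in place of 78.5, above Fgf12 (119.5). Leaving out Fgf11 to Fgf14, the far Fgfr2 TSS, or peaks near noncoding TSSs was added after seeing the data. No paired analysis was possible because there is 1 group. Depth is unknown, so a missing peak was not detectable at this depth and is not shown to be absent.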
